A study of Mus musculus with 35 samples.

Results

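Piezo2 and Ecrg4 are described here across 7 groups of mouse aortas because both were higher in aortas exposed to angiotensin II than in saline aortas at every time that was sampled. They were chosen by those measured differences, Ang II against saline at 7, 14 and 28 days, so these differences are given as a description with no test. The 2 genes are among 18670 that were tested, and they are read by 5 of the 41174 gene probes on the array, 4 for Piezo2 and 1 for Ecrg4. The files name the Piezo2 probes by the older clone names 9430028L06Rik and 9030411M15Rik, and the Ecrg4 probe by 1500015O10Rik.

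All aortas were suprarenal and came from male ApoE-/- mice, which lack apolipoprotein E, so the saline controls carry the same deletion. Osmotic minipumps, placed at an age of 12 to 14 weeks, delivered either saline vehicle or angiotensin II, a hormone that raises blood pressure, at 1000 ng/kg/min. The saline groups held 6 aortas at 7 days, 6 at 14 days and 5 at 28 days, and the Ang II groups held 4, 5 and 6 at these times. A further group held 3 aortas that had dissected by 7 days of Ang II. Each of the 35 arrays carried 1 aorta labelled with Cy5 against a common reference RNA labelled with Cy3. The labels number the aortas within a group, and the same numbers name the arrays here. In this model the whole vessel was homogenized, so fewer cells of a type and less RNA per cell cannot be told apart.

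Piezo2 encodes a large ion channel that opens when the cell membrane is stretched and lets cations into the cell. It is best known from touch receptors of the skin and from sensory neurons that report stretch of organs and vessels, where baroreceptor endings use it together with its relative Piezo1. Ecrg4 encodes augurin, a small secreted precursor that proteases cut into shorter peptides. Augurin was first studied as a gene silenced in tumours and has been tied to slower cell growth, to cartilage and to signalling at the surface of leukocytes.

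The upstream sequence of Ecrg4 is shown because this gene was higher than saline on average in every Ang II group. The window is the 250 bases before its RefSeq start site, chr1:43730352-43730601 on the plus strand of GRCm38.p6, and the capitals mark the only match among the motifs searched. Of the 2 genes, 1 is in the RefSeq promoter table used.
Ecrg4: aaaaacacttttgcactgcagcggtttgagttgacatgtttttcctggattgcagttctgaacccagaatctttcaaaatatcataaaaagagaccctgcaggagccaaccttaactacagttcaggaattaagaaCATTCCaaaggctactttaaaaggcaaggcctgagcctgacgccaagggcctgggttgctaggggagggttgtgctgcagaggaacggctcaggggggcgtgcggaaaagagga
The match is the TEAD motif GGAATG on the minus strand, from -114 to -109 relative to the start site. The same window held this motif, on either strand, in 12.6% of 32841 promoters of the table. No match was found for the AP-1 motif TGAGTCA (4.46% of promoters), the RUNX motif TGTGGT (14%), the SP1 motif GGGCGG (32.7%), CCAAT (33.9%), TATAAA (12.4%) or CACGTG (6.02%). None of these motifs overlapped another in the window. Its GC content was 48.4%, against a median of 52.4% over all promoters, and it held 5 CpG pairs against a median of 6.

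Levels are given as the log2 ratio of aorta to reference after background correction and loess normalization, so a step of 1 is a doubling. The share of spots well above background was 45 to 84.8% in the aorta channel and 54.5 to 71.9% in the reference channel. Of 12 genes of contractile smooth muscle, all 12 were well above background on all 35 arrays. The 35 arrays were scanned on 2 days and lay on 11 slides, and all 3 dissected aortas were scanned on the second day. Nothing in the labels ties the aortas of a group to separate litters or operators, so p-values measure the spread between these samples. Over all genes, calls were higher than saline in 53.5% of calls at 7 days, 47% at 14 days, 93.5% at 28 days and 51.7% in dissected aortas, and 38.2% were higher in dissected than in non-dissected aortas. With scale normalization between arrays these shares were 77.1%, 100% (6 calls), 66.3%, 62% and 60.9%, and with median centring in place of loess they were 58.1%, 28.9%, 100%, 13.8% and 3.02%. The scanner software's own ratio gave 31.8% at 14 days and the aorta channel alone 78.7% at 28 days. With median centring the median of all genes stood at -0.15 at 14 days, at -0.36 in dissected against saline and at -0.29 in dissected against non-dissected aortas, where it was 0.00, -0.04 and 0.00 otherwise.

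Piezo2 was low in saline aortas and high in all Ang II aortas. At 7 days its log2 ratio in the 6 saline aortas ran from -0.23 through a median of 0.30 to 0.54. The 4 non-dissected Ang II aortas stood at 3.97, 4.25, 4.35 and 3.88. The lowest Ang II aorta, at 3.88, lay far above the highest saline aorta, at 0.54, and the Ang II aortas lay close together.

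The 3 dissected aortas read 3.88, 4.32 and 3.48 for Piezo2, inside or just below the range of the non-dissected aortas. At 14 days the 6 saline aortas ran from 0.17 through 0.65 to 1.05, and the Ang II aortas stood at 2.23, 2.75, 3.15, 4.11 and 2.81. Array 4 of the Ang II group reached the level of the 7-day aortas and the other 4 did not. At 28 days the 5 saline aortas read 0.39, -0.02, 0.28, 0.23 and 0.80, and the 6 Ang II aortas ran from 1.57 through 2.10 to 2.86. The lowest Ang II aorta of any time was still above the highest saline aorta, which the choice of Piezo2 on these differences favours.

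Ecrg4 was also higher with Ang II, but its aortas were more scattered. At 7 days the saline aortas ran from 0.02 through a median of 1.05 to 1.71, and the Ang II aortas read 3.85, 4.85, 4.10 and 3.78. At 14 days the saline aortas ran from 0.82 through 1.11 to 2.10, and the Ang II aortas read 3.85, 5.24, 4.70, 5.71 and 4.12. The groups did not overlap at either time, which the choice of the gene on these differences favours. The share of all genes that separate in this way is not given here.

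At 28 days the groups did overlap for Ecrg4. The saline aortas read 0.73, 0.03, 1.44, 0.56 and 3.39, and the Ang II aortas ran from 2.15 through 3.24 to 4.94. Saline array 5, at 3.39, lay above 3 of the 6 Ang II aortas. By the scanner software's own ratio it read 6.59, above all 6 of them (5.22 to 5.85). Saline array 4, at 0.56, had an aorta intensity net of background of 323.9. That was above Ang II arrays 4 and 5, at 199.6 and 264. The dissected aortas read 3.46, 3.85 and 1.31, and array 3 of these lay inside the saline range.

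**Figure D1:**
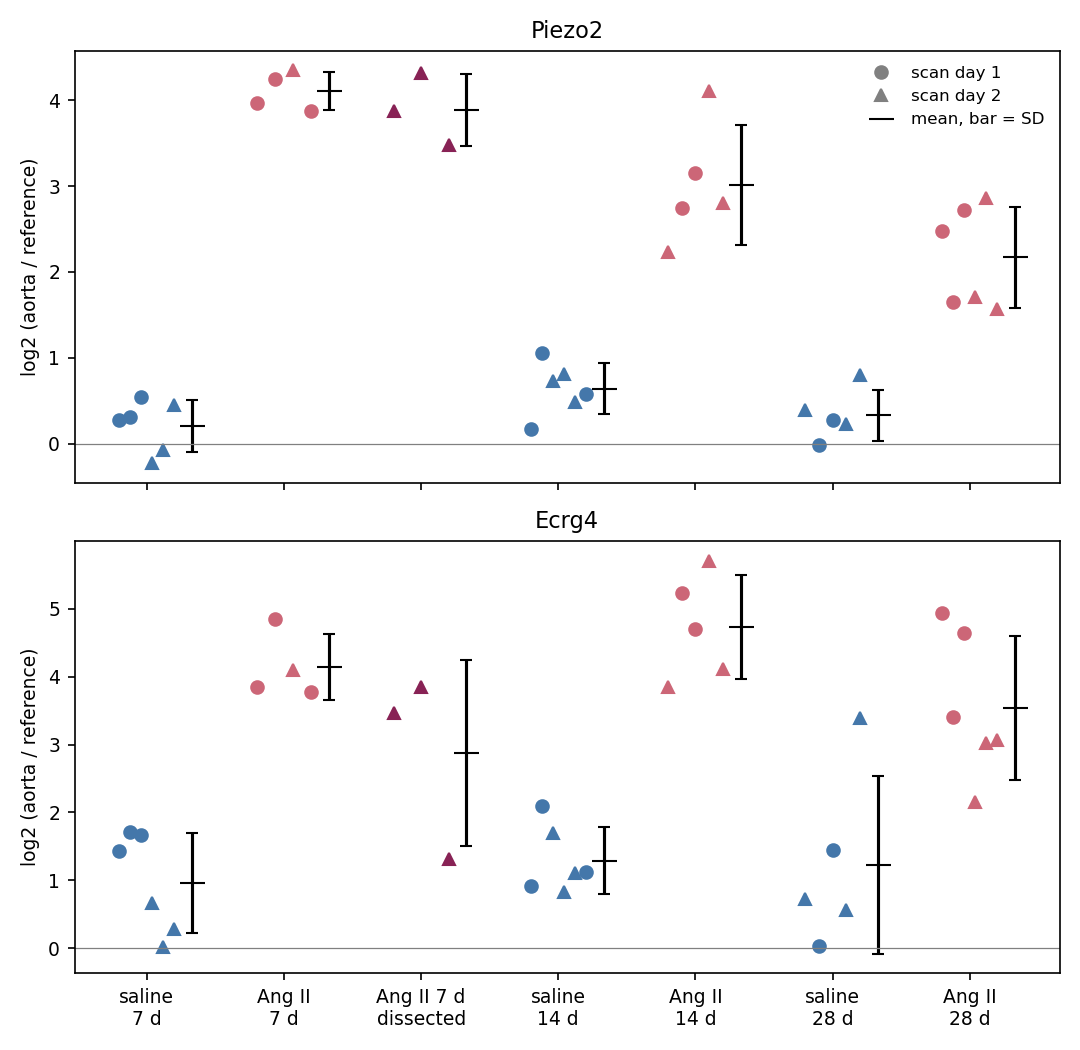
Log2 ratio of aorta to reference (vertical axis) of Piezo2 (top) and Ecrg4 (bottom) on each of 35 arrays in 7 groups (horizontal axis), with circles for scan day 1, triangles for scan day 2, and the group mean with its standard deviation in black. Piezo2, chosen for these differences, separates Ang II from saline at each time. For Ecrg4, saline array 5 at 28 days (3.39) and dissected array 3 (1.31) lie within the range of the other treatment.

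As group means, Piezo2 rose in order from saline at 7 days (0.21 ± 0.303, SD, n = 6) through saline at 28 days (0.33 ± 0.3, n = 5) and saline at 14 days (0.64 ± 0.3, n = 6) to Ang II at 28 days (2.17 ± 0.584, n = 6). Above it came Ang II at 14 days (3.01 ± 0.698, n = 5), the dissected aortas (3.89 ± 0.419, n = 3) and Ang II at 7 days (4.11 ± 0.222, n = 4). Saline at 7 and 28 days lay closer together than the larger of their SDs, as did the dissected and non-dissected aortas at 7 days. The step from saline at 28 to saline at 14 days was 0.31, barely past that SD of 0.3.

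For Ecrg4 the order was saline at 7 days (0.96 ± 0.737, SD, n = 6), saline at 28 days (1.23 ± 1.31, n = 5), saline at 14 days (1.29 ± 0.498, n = 6), dissected (2.87 ± 1.37, n = 3), Ang II at 28 days (3.54 ± 1.06, n = 6), Ang II at 7 days (4.14 ± 0.491, n = 4) and Ang II at 14 days (4.73 ± 0.771, n = 5). The step from saline at 14 days to the dissected aortas, 1.58, was past the larger SD of the neighbouring groups. Every other step between neighbours in the order was within it.

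Ang II minus saline was 3.90 (SE 0.276) for Piezo2 at 7 days, a 14.9-fold difference and the 8th highest of 18670 genes. It was 2.37 (0.259) at 14 days, 5.18-fold, and 1.83 (0.259) at 28 days, 3.56-fold. The dissected aortas stood 3.68 (0.302) above the same saline aortas, 12.8-fold. On the log2 scale the difference at 28 days was 47% of that at 7 days. Scale normalization gave 1.72 at 14 days, and in dissected aortas the value was 2.65 with median centring and 4.54 with the scanner software's own ratio.

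For Ecrg4 the difference was 3.18 (SE 0.565) at 7 days, 9.09-fold. It was 3.43 (0.53) at 14 days, 10.8-fold and the highest of all 18670 genes, and 2.31 (0.53) at 28 days, 4.95-fold. With the scanner software's own ratio and in the series table of the authors it was 2.02 at 14 days and 1.36 at 28 days, and with median centring it was 2.50 at 7 days. The dissected aortas stood 1.91 (0.619) above saline, 3.77-fold, at rank 342. That value was 2.70 without dissected array 3, 2.55 within scan day 2, which holds all dissected arrays, and 1.29 with median centring. Its standard errors were larger than those of Piezo2 in each of these comparisons.

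These differences chose the genes. With limma and Benjamini-Hochberg adjustment, 36 genes, 0.193% of those tested, were higher than saline at all 3 times. Ranked by the smallest of the 3 differences, Ecrg4 was the 5th of these and Piezo2 the 9th. Just ahead of Ecrg4 stood Timp1, an inhibitor of matrix metalloproteinases, with a smallest difference of 2.37. Just ahead of Piezo2 stood Trem2, a lipid receptor of macrophages, at 1.96. The genes share their saline aortas, so their differences are set side by side and not tested against each other.

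**Figure D2:**
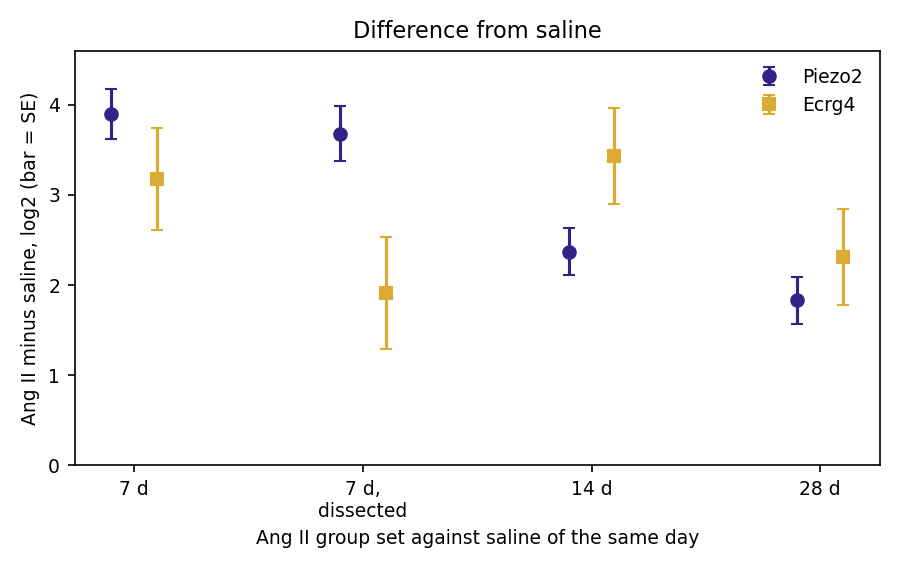
Difference from saline of the same day on the log2 scale (vertical axis) for Piezo2 (circles) and Ecrg4 (squares) in the 4 Ang II groups (horizontal axis); bars are standard errors of the fit. Piezo2 goes from 3.90 at 7 days to 1.83 at 28 days, and Ecrg4 from 3.18 through 3.43 to 2.31.

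Whether the difference from saline itself changed with time was tested in the same limma model. For Piezo2 the difference was 2.07 lower at 28 than at 7 days (log2 -2.07, SE 0.378, 95% interval -2.84 to -1.30, adjusted p = 0.00209), and of all genes 2.62% passed this test in either direction. Between 14 and 7 days it changed by -1.53 (SE 0.378, -2.30 to -0.76, adjusted p = 0.0447), where 1.03% of genes passed. This second call was lost when any of 14 single arrays was left out, with a limma adjusted p of up to 0.133 without Ang II 7-day array 2. It was also lost with scan day as a block and within either scan day. Between 28 and 14 days the change was -0.54 (SE 0.366, -1.29 to 0.21, adjusted p = 0.743), and limma called 0 genes in this comparison, 1356 having an unadjusted p under 0.05. A high value at 7 days was part of what chose Piezo2, so the 2 changes from 7 days are not independent of that choice.

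None of the 3 time tests passed for Ecrg4. Its difference from saline changed by 0.25 (SE 0.774, 95% interval -1.33 to 1.83, limma adjusted p = 0.885) from 7 to 14 days, by -0.88 (0.774, -2.45 to 0.70, 0.56) from 7 to 28 days and by -1.12 (0.749, -2.65 to 0.41, 0.738) from 14 to 28 days. The sign of these changes differed between alternatives, from -0.91 to 1.03 for 7 to 14 days and from -2.59 to 1.04 for 7 to 28 days, with no call in any of them.

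Dissected and non-dissected aortas at 7 days were compared next. The dissected aortas had no part in choosing the genes, but the non-dissected ones did by being high, which favours a negative difference. Piezo2 differed by -0.22 (SE 0.326, 95% interval -0.88 to 0.45, limma adjusted p = 0.763) and Ecrg4 by -1.27 (SE 0.668, -2.63 to 0.09, adjusted p = 0.269). Neither passed, while 3.06% of all genes were called higher and 4.96% lower in dissected aortas. The Ecrg4 value rests on dissected array 3: without it the difference was -0.49 (limma adjusted p = 0.783). No change across the saline aortas of 7, 14 and 28 days passed for Piezo2 (limma F test, adjusted p = 0.681) or Ecrg4 (adjusted p = 0.946), where 0.611% of genes were called.

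The Ecrg4 ratio has a weak denominator. Its aorta signal was well above background on 34 of 35 arrays, but its reference signal was on only 13. Those 13 were 1 of 17 saline arrays and 12 of 18 Ang II arrays, although every array carried the same reference RNA. Net of background, the reference spot read 13.2 to 55.8 in saline arrays and 20 to 377 in Ang II arrays, and the aorta spot 17.7 to 324 and 60.9 to 5460. On the log2 scale after background correction, the reference averaged 7.03 (SD 1.16) in saline and 7.05 (SD 0.701) in Ang II arrays. Across the 35 arrays the 2 channels of this spot, as log2 intensities, had a Pearson correlation of 0.494 (Spearman 0.577), a description over arrays that share labelling and scanner. The part of the reference channel in the ratio was not tested, but the aorta channel alone, without any ratio, gave Ang II minus saline values of 2.76, 3.27 and 1.96 at 7, 14 and 28 days. For Piezo2 both channels were well above background on all 35 arrays, and the aorta channel alone gave 3.95, 2.25 and 1.55.

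Scan day moved with Ecrg4 in some groups. In saline aortas at 7 days the 3 arrays of day 1 read 1.43 to 1.71 and the 3 of day 2 read 0.02 to 0.66. In Ang II aortas at 28 days the 3 arrays of day 1 read 3.41 to 4.94 and the 3 of day 2 read 2.15 to 3.06. Saline aortas at 28 days went the other way, with a mean of 0.73 on day 1 and 1.56 on day 2. Day means were 4.16 and 4.10 with Ang II at 7 days and 4.97 and 4.56 at 14 days. In saline at 14 days they were 1.38 and 1.21. Within day 1 Ang II minus saline was 2.56, 3.59 and 3.60 at 7, 14 and 28 days, and within day 2 it was 3.78, 3.35 and 1.18. The change of Ecrg4 from 7 to 28 days was 1.04 on day 1 and -2.59 on day 2, with limma adjusted p-values of 0.597 and 0.39. For Piezo2 the differences within day 1 were 3.65, 2.35 and 2.15 and within day 2 they were 4.30, 2.37 and 1.58, so its order over time was the same on both days. Its change from 7 to 28 days was -1.50 on day 1 (limma adjusted p = 0.183) and -2.73 on day 2 (adjusted p = 0.0972), with 16 and 19 arrays. Only 1 of the Ang II aortas at 7 days was scanned on day 2, so the day-2 values at 7 days and the day-2 changes from 7 days rest on that array for both genes, and their p-values assume that it varies like the other groups.

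The 4 Piezo2 probes did not give the same picture. Probe A_52_P375970, which stands for the gene here, is placed by the files at chromosome 18, 63135564 to 63135568 on mm8, a span shorter than the probe and given as deposited. Probe A_52_P212608, at 63201157 to 63204030, was well above background on 8 of 35 arrays, all of them Ang II arrays: 4 of 4 at 7 days, 3 of 5 at 14 days, 1 of 3 dissected and 0 of 6 at 28 days. It passed the filter of 3 such arrays only through Ang II aortas, so it could not be other than higher there. Probes A_51_P112465 and A_52_P356053 were well above background on 0 and 2 arrays and were not tested.

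The second Piezo2 probe read 0.61, 1.14, 0.94 and 0.75 in the Ang II aortas at 7 days and -0.09 to 0.14 in the 6 saline aortas. With the saline spots not well above background, the difference is at least 1.65-fold, the Ang II mean being set against the higher of the saline spot and the lowest signal measured above background on each array. At 14 days the Ang II aortas read 0.38, 0.36, 0.48, 0.28 and 0.44. Only 3 of these 5 spots were well above background, so no lower bound on the fold is given. At 28 days the Ang II aortas ran from -0.09 through 0.08 to 0.15, against a saline range of -0.02 to 0.26. Over the 35 arrays the 2 tested Piezo2 probes had a Pearson correlation of 0.761, and 0.68 over the 18 Ang II arrays. Most spots of the second probe were not well above background, and the first value also holds the contrast between saline and Ang II. These correlations are therefore no check of the kept probe.

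No test is given on this probe, because it entered the fit through the Ang II aortas at 7 days and most of its other spots were not well above background. Its 3 dissected aortas, of which 1 was well above background, averaged 0.56 less than the non-dissected ones (log2 -0.56), where the kept probe gave -0.22.

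**Figure D3:**
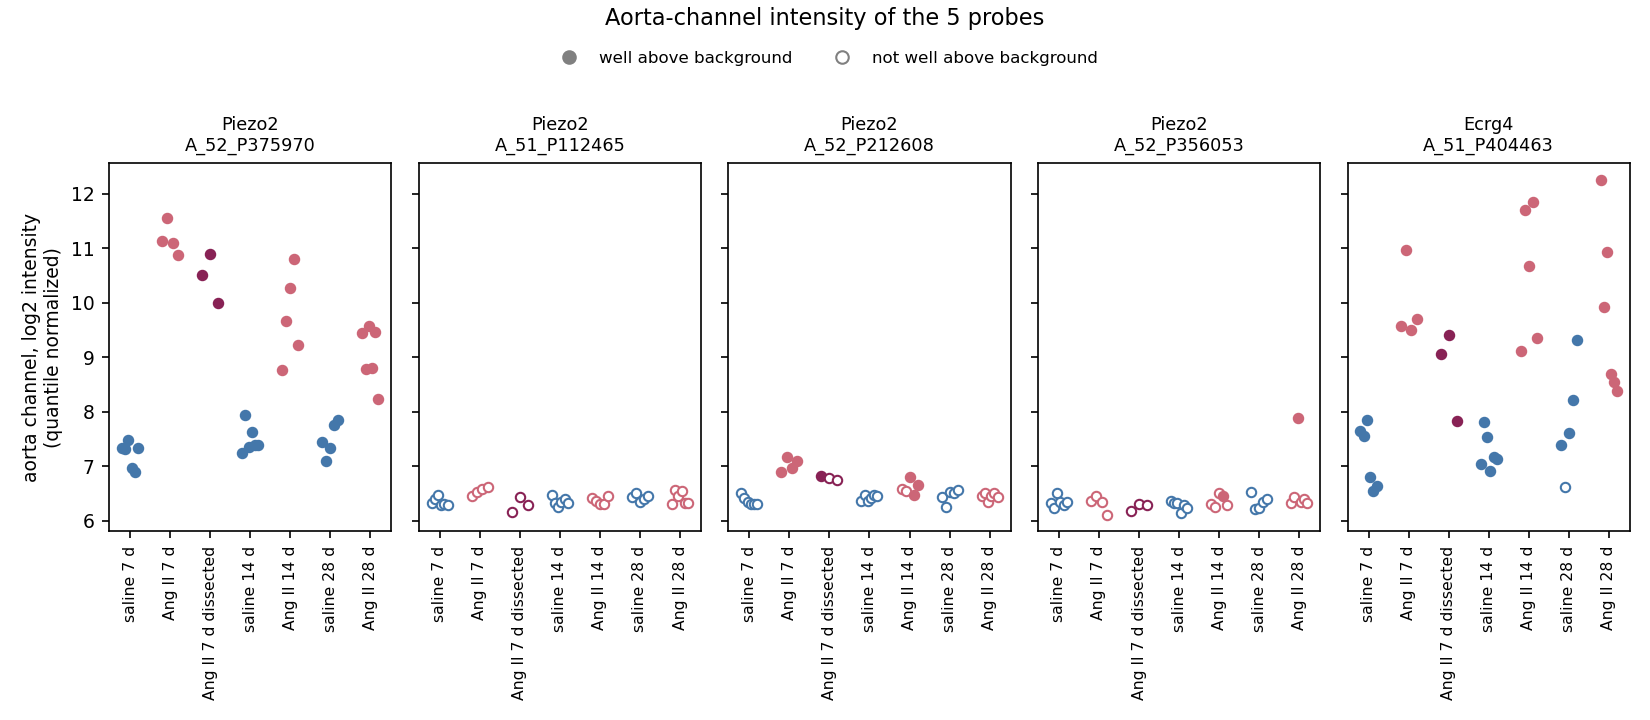
Aorta-channel log2 intensity after quantile normalization (vertical axis) of the 4 Piezo2 probes and the Ecrg4 probe in each of the 7 groups (horizontal axis); filled points are well above background on that array and open points are not. Probe A_52_P375970 is filled on all 35 arrays, A_52_P212608 on 8, A_51_P112465 on 0, A_52_P356053 on 2 and the Ecrg4 probe on 34.

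Piezo2 and Ecrg4 were set against each other array by array. Within the 17 saline arrays their Pearson correlation was 0.646 (Spearman 0.64), and within the 18 Ang II arrays it was 0.278 (0.251). Taken as deviations from the group means, it was 0.644 over 35 arrays, 0.686 within the saline arrays and 0.652 within the Ang II arrays. Among the Ang II groups the mean of Piezo2 was highest at 7 days and that of Ecrg4 at 14 days. The values share arrays and labelling, so they describe these arrays only.

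**Figure D4:**
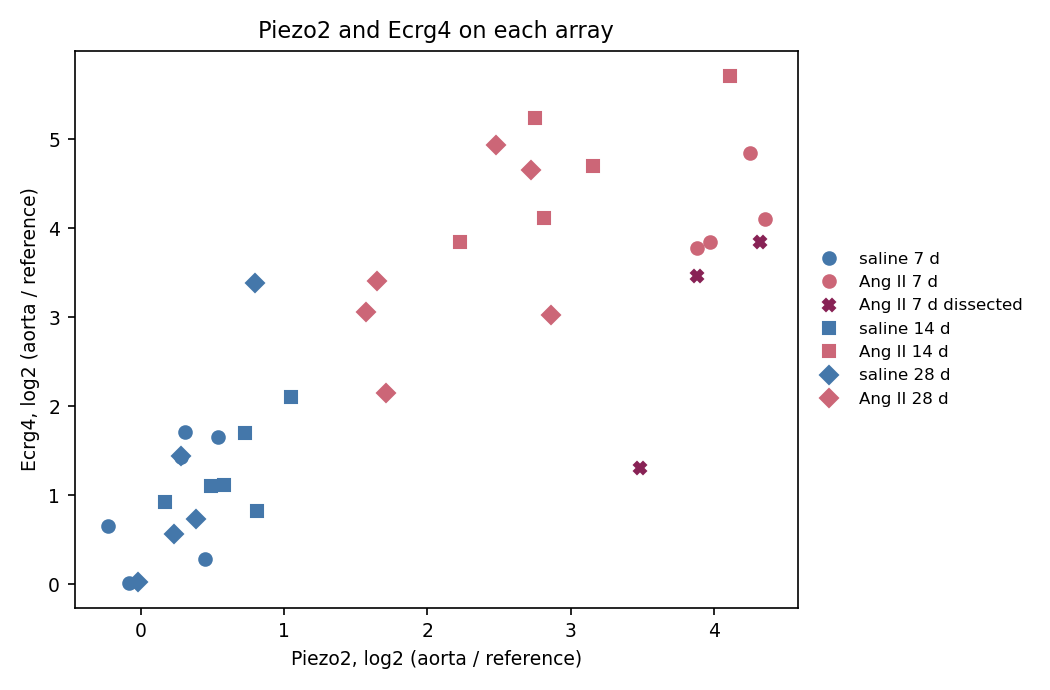
Log2 ratio of Piezo2 (horizontal axis) against that of Ecrg4 (vertical axis) on each of 35 arrays, with saline in blue, Ang II in red and dissected aortas as crosses, and a marker shape for each time. Saline arrays sit at the lower left, and saline array 5 at 28 days is the blue diamond at 0.80 and 3.39.

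The genes whose arrays followed Piezo2 most closely, by Pearson correlation over all 35 arrays, were Mmp14 (0.95), Cthrc1 (0.947), a probe with no gene symbol named NAP120816-001 (0.943), Srpx2 (0.941), Fbln2 (0.939) and Il33 (0.933). Mmp14 is a membrane-bound collagenase, Cthrc1 a secreted protein of activated fibroblasts, Fbln2 a matrix protein of the fibulin family and Il33 an alarm cytokine. Ecrg4 was at place 254 (0.819). Most of such a correlation is the contrast between saline and Ang II, so the deviations from the 7 group means were also ranked. There Cx3cl1, a membrane-tethered chemokine, came first (0.77), then Dok1, Ltbp2, Chpf2, Slc39a7 and Fancc (0.767 to 0.736), and Ecrg4 was at place 102 (0.644).

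For Ecrg4 the closest genes over 35 arrays were Col8a2 (0.938), Fap (0.903), Mmp2 (0.883), Fgf18 (0.883), Col8a1 (0.879) and Col1a1 (0.876), with Piezo2 at place 47. Col8a1 and Col8a2 encode the chains of type VIII collagen, Fap a surface protease of activated fibroblasts, Mmp2 a gelatinase and Col1a1 a chain of type I collagen. By deviations from the group means Col8a2 again came first (0.88), then Clec11a, Fmod, Sparc, Hoxaas2 and Col6a3 (0.853 to 0.829), with Piezo2 at place 581. Col8a2 was thus the first gene for Ecrg4 on both measures, and none of the 6 genes nearest to Piezo2 was among the 6 nearest to Ecrg4 on the same measure.

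Other channels that open on stretch, and their partners, were taken as a fixed list of 31 genes, of which 23 were tested. Piezo1, the relative of Piezo2, had 0 probes under its name and was not analysed here. At 7 days 4 of the 23 rose, where 14.5% of all genes did, and 1 fell, where 12.6% did. The median of the list was -0.19 against 0.00 over all genes and its range was -2.02 to 1.42. Piezo2, at 3.90, was chosen for that difference and is no measure for the list.

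The 4 that rose at 7 days were Pkd1, the large receptor that pairs with a cation channel in cilia, by 1.42 (SE 0.358, limma adjusted p = 0.00412), Tmem63a, a stretch-gated channel, by 0.85, Trpv4, a cation channel of vessel walls, by 0.66 and Trpm4, a calcium-activated channel, by 0.64. Kcnk4, a stretch-opened potassium channel, fell by 0.32 (limma adjusted p = 0.0321). Its spots at 7 days were well above background on 0 of 4 Ang II and 3 of 6 saline arrays, so that size is not exact. At 14 days 0 of the 23 rose, against 1.13% of all genes, and Mtmr2, a phosphatase reported to restrain Piezo2, fell by 0.60 (SE 0.148, limma adjusted p = 0.0278), against 1.27% of genes. At 28 days limma called 0 in either direction, and 0 had an unadjusted p under 0.05, where 0.841% of all genes were higher and 0.0589% lower, and the list ran from -0.44 to 0.37.

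In dissected aortas against saline 2 of the 23 rose, where 18.9% of all genes did, and 4 fell, where 17.6% did. Trpv4 rose by 1.07 (SE 0.267) and Trpv2, another cation channel, by 0.84 (0.279), while Trpm7, a channel joined to a kinase, fell by 1.60 (0.231), Mtmr2 by 0.86, Lrrc8a by 0.77 and Trpc1 by 0.61, with limma adjusted p-values of 3.35e-06 to 0.0182. Dissected against non-dissected, only Trpm7 was called (-1.47, SE 0.25, limma adjusted p = 0.000563). That is 1 of the 23 lower and 0 higher, where 4.96% of all genes were called lower and 3.06% higher.

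**Figure D5:**
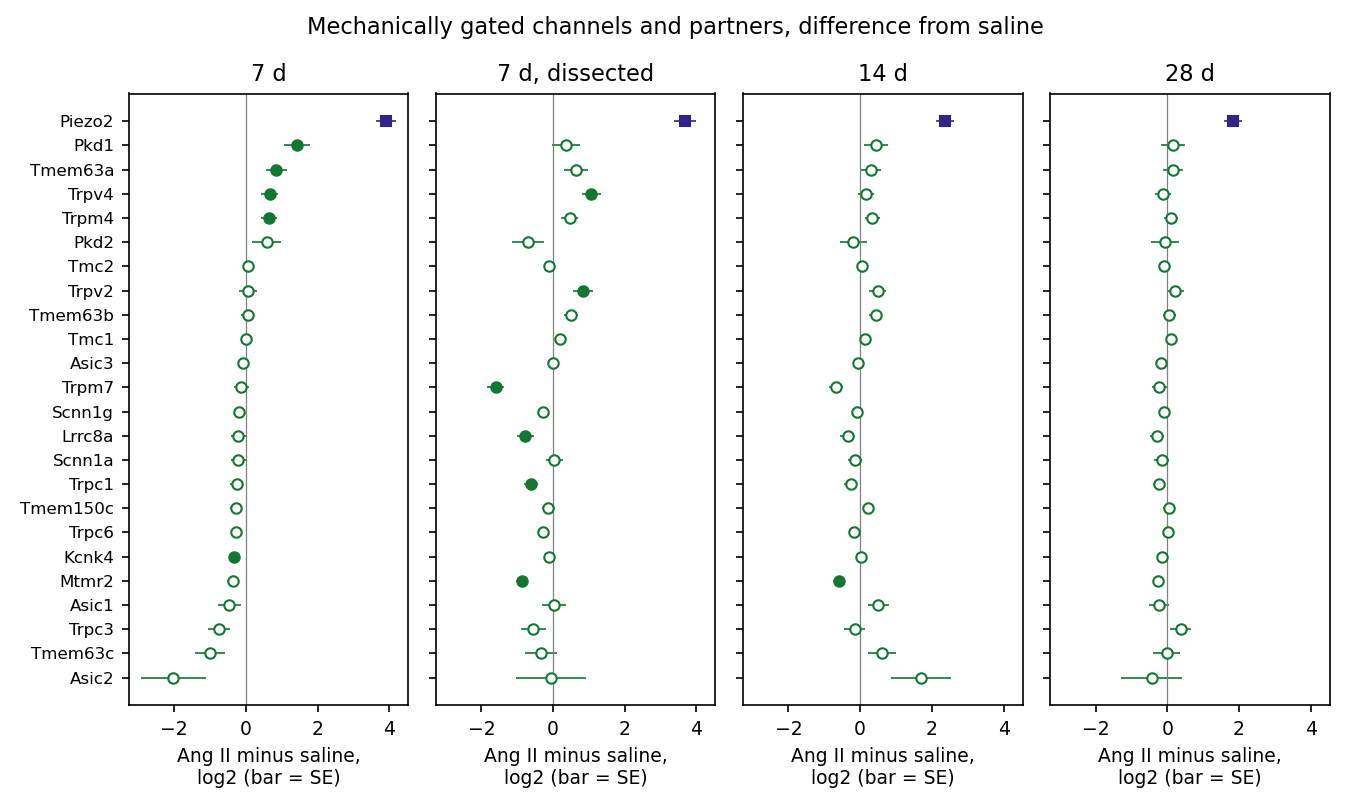
Difference from saline on the log2 scale (horizontal axis) of the 23 tested channels and partners (circles, by gene on the vertical axis) and of Piezo2 (square) in the 4 Ang II groups; filled circles passed an adjusted p of 0.05 and bars are standard errors. Pkd1 at 1.42 is the highest circle at 7 days, Piezo2 is drawn at 3.90 as the gene chosen for this difference, and no circle is filled at 28 days.

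Cell contacts that carry stretch, and the YAP, TAZ and TEAD factors with their targets, were read from 2 further lists. Of 18 integrin and focal adhesion genes, 4 rose at 7 days, where 14.5% of all genes did: Itga11, an integrin chain for collagen, by 2.52 (SE 0.572, limma adjusted p = 0.00184), Itgb5 by 1.32, Itga5 by 1.13 and Pxn, an adaptor of focal adhesions, by 0.48. The list's median was 0.37 against 0.00 for all genes. Limma called 0 of the 18 at 14 or 28 days, where 3 and 1 had an unadjusted p under 0.05. Of all genes 1.13% and 0.841% were called higher at these times and 1.27% and 0.0589% lower. In dissected aortas 1 of the 18 rose (Pxn, 1.07), where 18.9% of all genes did, and 5 fell, where 17.6% did, led by Parva (-1.63), Vcl (-1.49) and Itgav (-1.44). Of 14 YAP, TAZ and TEAD factors and targets, 3 rose at 7 days, against the same 14.5%, Ccn2 by 2.20, Ccn1 by 1.01 and Tead2 by 0.69. Limma called 0 of the 14 at 14 or 28 days, against the same small shares of all genes, and 4 and 1 had an unadjusted p under 0.05. In dissected against non-dissected aortas 1 of the 14 was called higher, where 3.06% of all genes were, and 4 lower, where 4.96% were. The higher one was Tead2 (0.73, limma adjusted p = 0.0129). The lower ones included Ccn2, a matrix-bound target of these factors (log2 -2.79, SE 0.871, limma adjusted p = 0.0437), and Lats2 (-1.42, adjusted p = 0.00589). The list thus held calls in both directions.

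Augurin's reported receptors and the proteases that cut it made a list of 11 genes, all tested. At 7 days 6 rose and 1 fell, where 14.5% of all genes rose and 12.6% fell. The thrombin receptor F2r rose by 1.87 (SE 0.373, limma adjusted p = 0.000539), the scavenger receptor Stab1 by 1.55 and Cd14, a partner of the endotoxin receptor, by 1.33. Olr1, a receptor for oxidized lipoprotein, rose by 1.12. At 7 days 0 of its 6 saline spots were well above background, so the size of that rise is not exact. The fatty acid receptor Cd36 fell by 1.53. Limma called 0 of the 11 at 14 or 28 days, where 4 and 3 had an unadjusted p under 0.05. Of all genes 1.13% and 0.841% were called higher at these times and 1.27% and 0.0589% lower. With shares this small, a count of 0 says little about the list. In dissected aortas 6 rose and 1 fell, where 18.9% and 17.6% of all genes did, with Stab1 at 2.49 and Cd36 at -1.99; Ly96 (0.63), another of the 6, changed sign under median centring.

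Cell cycle inhibitors were listed because augurin has been tied to growth arrest. Of 12 genes 1 rose at 7 days (Rbl1, 0.50) and 2 fell (Rb1, -0.85, and Rbl2, -0.67), where 14.5% of all genes rose and 12.6% fell. Rb1 was also lower at 14 days (-0.59, SE 0.139, limma adjusted p = 0.0219), where 1.27% of all genes fell. At 28 days limma called 0 of 12, and 1 had an unadjusted p under 0.05. Of all genes 0.841% rose and 0.0589% fell at that time.

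Genes of cartilage, where augurin is also made, had 15 tested members of 19. At 7 days 9 rose, where 14.5% of all genes did, and 0 fell, with a median of 1.54 against 0.00 for all genes. Col2a1, the chain of type II collagen, rose by 3.51 (SE 0.478), Prg4, the joint lubricant, by 3.32 (0.604), Cilp by 2.96 (0.406) and Col11a1 by 2.73 (0.579), with limma adjusted p-values of 4.81e-06 to 0.000959. At 14 days 4 rose, where 1.13% of all genes did, Col11a1 by 2.37, Col2a1 by 2.17, Comp by 1.77 and Cilp by 1.59, and at 28 days, where 0.841% did, only Prg4 was called (2.53, SE 0.566, limma adjusted p = 0.0224). Of these, Comp and Cilp at 14 days were called in 2 of 6 alternative scalings and Prg4 at 28 days in 1. In dissected aortas 6 rose, against 18.9% of all genes, led by Prg4 (3.49), Comp (2.90) and Acan (2.56).

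Markers of other cells that could carry these RNAs were counted as well, and of all genes 14.5% rose at 7 days, 1.13% at 14 days, 0.841% at 28 days and 18.9% in dissected aortas. The shares of all genes that fell were 12.6%, 1.27% and 0.0589% at these times and 17.6% in dissected aortas. All 9 activated fibroblast markers rose at 7 days, 6 at 14 days, 3 at 28 days and 6 in dissected aortas, with Cthrc1 at 5.06, 3.42, 1.73 and 4.20. Their mean log2 ratio ran from -0.77 to 1.37 over the saline arrays of all times, from 3.34 to 4.03 with Ang II at 7 days, 1.87 to 3.09 at 14 days, 0.87 to 3.19 at 28 days and 2.32 to 3.15 in dissected aortas. Saline array 5 at 28 days, high for Ecrg4, had the highest such mean of all saline arrays at 1.37, and dissected array 3, low for Ecrg4, had the lowest of its group at 2.32. By deviations from the group means over 35 arrays this list's mean had a Pearson correlation of 0.746 with Piezo2 and 0.815 with Ecrg4, and the cartilage list's mean 0.615 and 0.876. Without removing group means, the activated fibroblast values were 0.875 and 0.463 within the 18 Ang II arrays. They were 0.731 and 0.824 within the 17 saline arrays. The cartilage values were 0.729 and 0.673 with Ang II and 0.736 and 0.837 in saline. How much of either gene's level came with the amount of such cells was not tested.

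Macrophage markers rose as 11 of 11 at 7 days, 2 at 14, 6 at 28 and 10 in dissected aortas, and 2 of the 6 at 28 days, Lyz2 and C1qb, changed sign with scale normalization between arrays. By deviations from group means their list had lower correlations than the activated fibroblast list, 0.387 with Piezo2 and 0.31 with Ecrg4. The gap between the lists was not tested. Without removing group means, the macrophage values were 0.653 and 0.624 within saline arrays and 0.526 and -0.322 within Ang II arrays. Of 12 adventitial fibroblast markers 8 rose and 1 fell at 7 days, and limma called 0 at 14 or 28 days, where 6 and 3 had an unadjusted p under 0.05. Of 12 smooth muscle markers 1 rose at 7 days, Smtn by 0.95, and limma called 0 at 14 or 28 days, where 1 and 0 had an unadjusted p under 0.05. In dissected aortas 0 smooth muscle markers rose and 2 fell, Mylk by 1.56 and Des by 1.10, with a list median of -0.81. Of the adventitial fibroblast markers 0 rose and 1 fell there. Of all genes 18.9% rose and 17.6% fell in dissected aortas.

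At 7 days, markers of the cells best known for Piezo2 fell or were not called. Of 13 tested sensory neuron markers, 0 rose and 6 fell at 7 days, where 12.6% of all genes fell, among them Nefl by 3.15, Nefh by 2.35 and Prph by 1.99, with limma adjusted p-values of 0.0424 to 0.0467. Under 6 alternative scalings all 3 stayed lower, but Nefl was called in 2, Nefh in 3 and Prph in 4 of them. The uncalled markers at 7 days went both ways. Pou4f1 stood at 0.27, Calca at 0.21, Runx3 at 0.20 and Pvalb at 0.07. Ntrk2 stood at -0.56, Isl1 at -0.61 and Nefm at -2.50. In dissected aortas 2 of the 13 rose and 2 fell, where 18.9% and 17.6% of all genes did. Pou4f1 rose at 14 days by 0.47 (SE 0.111, limma adjusted p = 0.0223), a call kept in 1 of the 6 scalings, and limma called 0 at 28 days, where 1 had an unadjusted p under 0.05. The list's mean ran from 1.03 to 3.18 in saline arrays and from 0.88 to 1.72 with Ang II at 7 days, and its deviations had a correlation of -0.163 with those of Piezo2. Of 4 tested Merkel cell markers limma called 0 at any time, and 1 had an unadjusted p under 0.05, at 28 days. Of 12 sympathetic and chromaffin markers 8 fell at 7 days, led by Chgb at -3.88, and of 10 Schwann cell markers 5 fell. At 14 and 28 days limma called 0 in either list, where 2 and 0 of the first and 0 and 1 of the second had an unadjusted p under 0.05. In dissected aortas limma called 0 sympathetic and chromaffin markers, and 3 Schwann cell markers fell, where 17.6% of all genes did.

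The remaining lists name tissues that could have been dissected with the aorta. Of 11 fat cell markers 2 fell at 7 days, where 12.6% of all genes did, Cox7a1 by 2.17 and Elovl3 by 1.75. Of 9 kidney markers Ren1, which encodes renin, rose at 7 days by 0.67, where 14.5% of all genes rose. At 14 days 4 kidney markers fell, where 1.27% of all genes did, led by Lrp2 at -1.53. The Lrp2 call was kept in 1 of 6 alternative scalings. Those of Cdh16, Slc22a6 and Slc34a1 were kept in 3, 1 and 0. In non-dissected aortas limma called 0 of 10 endothelial, 8 mesothelial, 5 adrenal cortex and 4 erythroid markers at 7, 14 or 28 days, with up to 5 having an unadjusted p under 0.05, the endothelial ones at 28 days. In dissected aortas the endothelial markers Egfl7 (0.91) and Tek (-1.81) and the mesothelial marker Wt1 (1.27) were called. Of all genes 18.9% rose and 17.6% fell there.

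The neighbours of each gene on its chromosome were read only for this purpose and named after their values were seen. None of those tested was called higher than saline at 7, 14 and 28 days alike. Only 0.193% of all genes were, so this was likely for so few genes and says nothing about the loci. For comparison, 14.5% of all genes rose and 12.6% fell at 7 days. Beside Piezo2, Napg differed by -0.68 (limma adjusted p = 0.0207) and Txnl1 by 0.02 at 7 days. The gene after Txnl1, Wdr7, differed by -0.95 (limma adjusted p = 0.0202). Beside Ecrg4, Nck2 differed by -0.11 and Uxs1 by 0.40 (limma adjusted p = 0.0298). The gene after Nck2, Fhl2, which encodes a LIM-domain cofactor, rose by 2.46 at 7 days (limma adjusted p = 0.000839) and stood at 0.49 and 0.58 at 14 and 28 days (adjusted p = 0.608 and 0.621).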

How the data were processed

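Total RNA of 35 suprarenal aortas, labelled with Cy5, was hybridized to Agilent arrays against a universal mouse reference labelled with Cy3, with no dye swap, per the labels. Spot intensities and local backgrounds come from the authors' deposited scanner output, for which the submitters' processing notes name Agilent Feature Extraction 9.5.3.1. The log10 ratio and the flags for spots well above background are that program's, per the file headers. The authors' deposited series table gives the aorta over the reference as log2 values (slope on the log10 ratio 3.321 to 3.341, correlation 0.986 to 1, array medians -0.0675 to 0.109), and further normalization of it is not given in the sources used here.

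Here the intensities were corrected with normexp (offset 50) and loess-normalized within each array in limma 3.58.1 (R 4.3.3), with control spots and outlier spots given no weight. Probes were kept if at least 3 arrays had an aorta signal well above background, and each gene was read by its kept probe of highest mean log2 intensity. A model of 7 group means was fitted to 18670 genes (lmFit, eBayes), and calls were made at a Benjamini-Hochberg adjusted p under 0.05. On simulated data for Ang II against saline at 7 days, 95% of genes changed by 2 log2 units and 67% of those changed by 1 were recovered. For dissected against non-dissected aortas these shares were 94% and 59%. For the change of the Ang II effect from 7 to 28 days they were 90% and 56%, so changes near 1 could often be missed. Intervals are at 95%, with precision limited by the number of arrays. Probes were named through RefSeq accessions (24375), current symbols (6301) or older symbols (2426), and 8072 kept the name in the file.

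The members and the gene lists were chosen with earlier results of these data known. Named genes are all member probes, the 6 genes nearest each member by Pearson correlation, and at most 4 called genes of each list and comparison; a few genes that met this rule are not reported here. Alternatives covered background correction, normalization, filters, probes, blocks, array weights and single arrays left out.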

Additional observations from a re-analysis of the deposited data

Results flagged for a closer look

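Of the 12 sets of 4 to 6 arrays, Piezo2 and Ecrg4 each in 6 groups, 0 held an array whose gap to its nearest neighbour stood out against the range of its group (Dixon's criterion, which chance exceeds in about 1 of 20 groups). Saline array 5 at 28 days, high for Ecrg4 at 3.39, was not past it.

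The difference of Piezo2 from saline was called as changing from 7 days to both later times. It is also the difference that chose the gene, so these tests are not independent of that choice and are no separate evidence of a change. Within scan day 1 neither call was kept, and scan day 2 holds only 1 Ang II array at 7 days. The difference was lower by 1.53 at 14 than at 7 days (log2 -1.53, limma adjusted p = 0.0447, a call lost in 14 of 21 fits that left out 1 array) and by 2.07 at 28 than at 7 days (log2 -2.07, limma adjusted p = 0.00209). Piezo2 probe A_52_P356053, which was not tested, was well above background on 2 of 18 Ang II arrays and 0 of 17 saline arrays. These were Ang II 14-day array 4, with a net aorta intensity of 56.7, and Ang II 28-day array 3, with 122, where the reference channel of the same spot read 644.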

How the results depend on the processing

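Over all results and alternatives, 494 values stayed on the same side of the threshold or, where no test was made, moved by less than 1 SD between arrays; among these the uncalled changes of Ecrg4 with time varied in sign. The exceptions follow, as log2 differences, and their cause was not tested. Piezo2 at 7 days (3.90) was 4.44 with the scanner software's ratio and 4.44 in the series table, 3.41 with median centring, 3.49 with scale normalization and 4.30 within scan day 2. At 14 days (2.37) scale normalization gave 1.72. In dissected against saline aortas (3.68) it was 4.54 with the software's ratio and in the series table, 2.65 with median centring, 3.09 with scale normalization and 3.25 in the aorta channel alone. With the other Piezo2 probe, an alternative chosen after seeing the data, it was 0.86, 0.37 and -0.01 at 7, 14 and 28 days, a reversed sign at 28 days where that probe was not well above background on any Ang II array. That probe gave 0.30 in dissected against saline and -0.56 in dissected against non-dissected aortas, values that rest mostly on spots not well above background. Ecrg4 was 2.50 at 7 days with median centring (3.18), 3.60 at 28 days within scan day 1 (2.31), and at 14 days (3.43) 2.02 with the software's ratio and in the series table, 2.63 with median centring and 2.50 with scale normalization. The change of Piezo2 from 7 to 14 days lost its call at -1.53 with median centring (limma adjusted p = 0.057), no filter (0.0606), all probes (0.0501) and scan day as a block (0.0612), and at -1.30 and -1.93 within scan days 1 and 2 (0.265 and 0.336). From 7 to 28 days it lost its call within scan day 1 (-1.50, 0.183) and day 2 (-2.73, 0.0972), the latter with 1 Ang II array at 7 days. Leaving out single arrays, the 14-day change ran from -1.80 to -1.33 and the 28-day change from -2.21 to -1.95, the latter with limma adjusted p-values of 0.000664 to 0.0101. Of the genes in the fixed lists, median centring called 52 rather than 83 at 7 days, 9 rather than 19 at 14 days and 37 rather than 17 in dissected against non-dissected aortas, where testing without a filter called 11. Depth is set by signal over background, which limits Ecrg4 in the reference channel and 3 of the 4 Piezo2 probes.

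Replicate numbers are shared between groups, and same-numbered arrays had deviations that correlated at -0.397 to 0.594. All pairs were above 0.1 only in dissected against saline aortas, where the replicate block gave 3.68 for Piezo2 and 1.66 for Ecrg4. With the replicate block the change of Piezo2 was -1.55 from 7 to 14 days (limma adjusted p = 0.0488) and -2.03 from 7 to 28 days (adjusted p = 0.0106), and it changed no call for either gene.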
